A study of Homo sapiens with 2 samples.

Results

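The 131 genes described here are the keratin genes (47, symbols of KRT followed by digits) and the keratin-associated protein genes (84, KRTAP followed by digits), out of 14884 genes named in the platform annotation of 1 whole-transcript array experiment. They were chosen by symbol alone, with pseudogenes and antisense transcripts left out, and a gene with several probe sets was read from its brightest. Probe sets annotated to more than 1 gene were not used, so a gene read only by such probe sets is absent here. The cells were SNK6, a human line of natural killer/T-cell lymphoma that carries Epstein-Barr virus, grown with 500 U/ml interleukin-2 and 10% serum. They received romidepsin plus sildenafil or romidepsin alone for 72 h; romidepsin blocks class I histone deacetylases and sildenafil blocks a phosphodiesterase. Both samples therefore carried romidepsin, and cells without romidepsin were not analysed here. Each group is 1 array of 1 cell line, so no value has a replicate error, no difference was tested, and array, culture and treatment cannot be told apart. The precision is limited by the number of arrays. Differences are log2 signals with sildenafil minus those without.

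Keratins are the intermediate filament proteins of epithelial cells. An acidic type I keratin pairs with a basic type II keratin to build the filament, and the pair used changes with the epithelium: KRT8 with KRT18 in simple epithelia, KRT5 with KRT14 in the basal epidermis, and the cysteine-rich hair keratins in the hair shaft. The keratin-associated proteins are small, mostly rich in cysteine or in glycine and tyrosine, and they cross-link hair keratin filaments. Their genes are short, lie in dense clusters and have close relatives. Cells of the lymphoid lineage use vimentin and the lamins as their main intermediate filaments.

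The keratin and keratin-associated genes were dim on both arrays, and 4 of them, all keratin-associated, differed by at least 1.5-fold past the signal filter. KRTAP5-3, KRTAP10-1 and KRTAP20-1 were higher with sildenafil and KRTAP23-1 was lower. No keratin gene past the filter reached 1.5-fold. The filter keeps a gene whose brighter array reaches 3.91, the median signal over both arrays. Of the 131 genes 43 passed it (32.8%), against 67.7% of all named genes and 73.4% of the named protein-coding genes. Since 12 of the 43 passed on 1 array only, a difference helped those genes to pass, and the count called among them is a description. Of the 4 genes called, 3 (KRTAP5-3, KRTAP10-1 and KRTAP23-1) were among those 12. That count was 4 of 43 genes (9.30%), beside 1.99% of all 10081 named genes past the filter and 1.20% of those that code for proteins. Where both arrays had to pass, 1 of 31 members was called (3.23%, KRTAP20-1), beside 1.12% of 9443 named genes. Past the filter on either array, the higher direction held 3 genes, beside 1.02% of named genes, and the lower direction 1 gene, beside 0.972%. At 2-fold 2 members (KRTAP5-3 and KRTAP10-1) were higher, beside 0.0893% of named genes, and 0 lower, also beside 0.0893%. Both genes passed the filter on the sildenafil array alone, and neither is called where both arrays have to pass.

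The stretches upstream of the 4 genes are shown because these are the members past the filter that differed by at least 1.5-fold. Each sequence is the 250 bases before the annotated start, read 5′ to 3′ on the gene's strand, from RefSeq (GRCh38.p14). Capitals mark the letters TATAAA, the core of a TATA box. KRTAP5-3 (chr11:1608464-1608713, minus strand) and KRTAP10-1 (chr21:44540196-44540445, minus strand) come first, followed by KRTAP20-1 (chr21:30616175-30616424, plus strand) and KRTAP23-1 (chr21:30348607-30348856, minus strand).
KRTAP5-3: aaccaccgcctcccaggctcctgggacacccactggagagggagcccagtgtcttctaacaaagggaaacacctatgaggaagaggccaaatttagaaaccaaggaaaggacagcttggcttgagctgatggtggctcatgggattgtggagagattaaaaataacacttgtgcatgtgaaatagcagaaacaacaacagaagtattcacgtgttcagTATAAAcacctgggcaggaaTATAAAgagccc
KRTAP10-1: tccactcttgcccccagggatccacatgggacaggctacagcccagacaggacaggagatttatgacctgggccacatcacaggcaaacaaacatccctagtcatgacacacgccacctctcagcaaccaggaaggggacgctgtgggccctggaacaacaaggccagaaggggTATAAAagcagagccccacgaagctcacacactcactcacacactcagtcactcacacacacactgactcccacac
KRTAP20-1: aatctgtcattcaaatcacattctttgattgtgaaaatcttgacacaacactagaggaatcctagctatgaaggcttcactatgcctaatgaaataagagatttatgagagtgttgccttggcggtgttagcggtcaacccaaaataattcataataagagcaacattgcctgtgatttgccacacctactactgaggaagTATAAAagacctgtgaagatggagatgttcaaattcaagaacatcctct
KRTAP23-1: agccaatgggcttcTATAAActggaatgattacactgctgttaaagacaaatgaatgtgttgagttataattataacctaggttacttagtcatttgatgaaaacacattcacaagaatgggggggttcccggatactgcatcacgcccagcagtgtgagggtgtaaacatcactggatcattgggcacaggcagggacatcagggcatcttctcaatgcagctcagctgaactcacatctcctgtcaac
The motif began 32 and 12 bases before the start of KRTAP5-3, 76 bases before that of KRTAP10-1, 49 before that of KRTAP20-1 and 236 before that of KRTAP23-1. RefSeq gave such a window for 102 of the 131 genes. TATAAA on either strand was present in 71 of the 102 (69.6%), against 11.1% of 27305 promoters of the same length. Among keratin-associated genes that share was 75.7% of 70. Among keratin genes it was 56.2% of 32, with 8 of 12 hair keratins and 4 of 10 keratins of the other epithelia. On the gene's strand and between 45 and 16 bases before the start, TATAAA was present in 46 of the 102 (45.1%), against 2.63% of all promoters. Of the 4 genes shown, only KRTAP5-3 had it there. GGGCGG, the core of a GC box, was found on either strand in 5 of the 102 windows (4.90%), against 42.3% of all promoters. The windows held a median of 2 CpG dinucleotides, against 11 in all promoters, and a median of 41.2% G and C, against 58.0%. CCAAT on either strand stood in 43.1% of the members' windows and 33.0% of all, and the activator protein 1 motif TGANTCA in 5.88% and 6.60%. These are matches of letters in a fixed window, and no binding was measured.

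**Figure D1:**
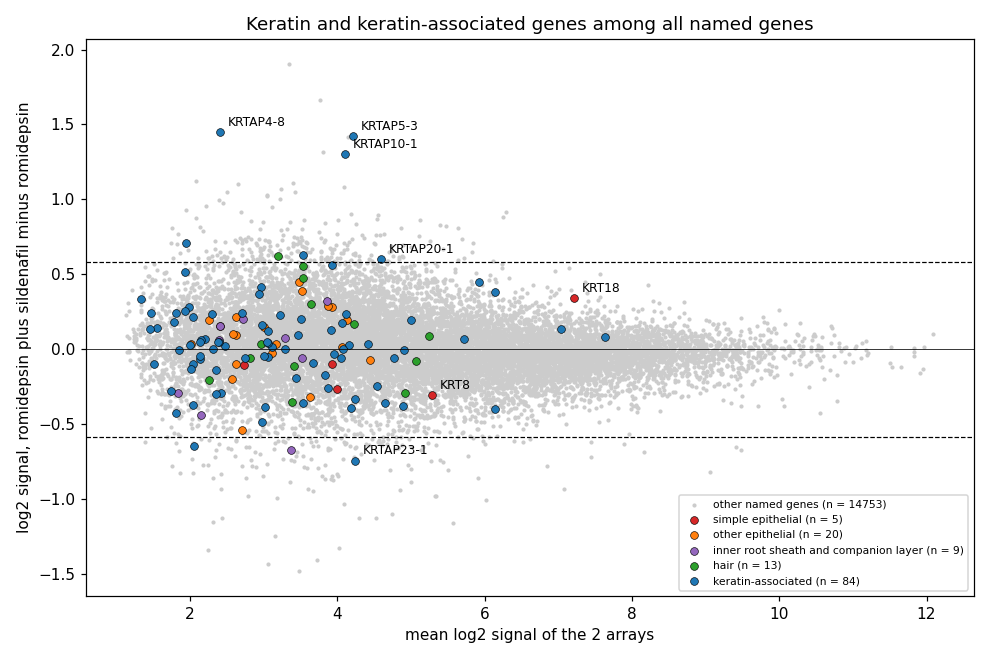
Each point is a gene, with the mean log2 signal of both arrays on the x axis and the log2 difference, romidepsin plus sildenafil minus romidepsin, on the y axis; grey points are the 14753 other named genes and dashed lines mark 1.5-fold. Most coloured members lie at the dim left end, and KRTAP5-3, KRTAP10-1 and KRTAP4-8 stand above the rest of the members.

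Of the 5 simple epithelial keratins, KRT18, read from its brighter probe set, had the highest signal of all keratin genes. KRT8 followed with a mean of 5.28, close to the hair keratin KRT85 at 5.25, and KRT19, KRT7 and KRT20 were dimmer. A signal depends on the probes as well as on the transcript, so signals of different genes are given as positions on the array and not as amounts. KRT18, the type I keratin of simple epithelia, had a log2 signal of 7.38 with sildenafil and 7.04 without, a mean brighter than that of 85.3% of named genes. KRT8, its type II partner, had 5.13 with sildenafil and 5.43 without. The partners thus differed in opposite directions, KRT18 by 0.34 and KRT8 by -0.30, both within 1.5-fold. Named genes of similar signal had an SD of differences of 0.15 beside KRT18 and 0.25 beside KRT8. Such an SD is a spread across genes and not the error of either gene.

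The KRT18 value rests on which of its probe sets is read. The probe set annotated to transcript NM_000224 gave the values above, while that annotated to NM_199187 gave only 3.55 with sildenafil and 3.34 without, below the filter on both arrays. Both were higher with sildenafil, by 0.34 and 0.21. KRT18 has many processed pseudogenes, and whether the bright probe set also reads these was not tested. KRT19, a type I keratin of simple and ductal epithelia, was at 3.86 with sildenafil and 4.13 without, and KRT7, a type II keratin of glandular epithelia, at 3.88 and 3.99. Both passed the filter on the romidepsin array alone. KRT20, the type I keratin of intestinal epithelium, was below the filter at 2.67 with sildenafil and 2.78 without. Of these 5 genes only KRT18 was higher with sildenafil. The median difference of the 4 past the filter was -0.18, against -0.01 over all named genes past it, but it turned to 0.02 where both arrays had to pass, which left KRT18 and KRT8 alone.

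Keratins of stratified and other epithelia were dimmer. Of 20 measured genes 5 passed the filter and none had a mean signal of 5 or more, a level that 45.0% of named genes reached. KRT4, a keratin of the oral and oesophageal lining, was the brightest at 4.41 with sildenafil and 4.48 without. KRT14, of the basal epidermal layer, was at 4.23 and 4.04, and KRT78 at 4.07 and 4.05. KRT15, a keratin of basal cells, was at 4.06 with sildenafil and 3.79 without, and KRT16, induced in injured epidermis, at 4.02 and 3.73. KRT15 and KRT16 passed the filter on the sildenafil array alone. KRT5, the partner of KRT14, lay at 2.64 with sildenafil and 2.54 without, so the pair differed in the same direction, by 0.10 and 0.19. The largest differences in this class were below the filter on both arrays: KRT79 at -0.54, KRT10 (suprabasal epidermis) at 0.45, KRT23 at 0.39 and KRT77 at -0.32. KRT1, the partner of KRT10, differed by 0.09.

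Keratins of the inner root sheath and companion layer, the sleeves around the growing hair, were the dimmest keratin class by median signal. Only KRT74 of 9 genes passed the filter, at 4.02 with sildenafil and 3.69 without. KRT75, the companion layer keratin, was 1.60-fold lower with sildenafil (3.04, against 3.72 without), with both arrays below the filter. KRT25 differed by -0.44 and KRT26 by -0.29, both with signals under 2.4, and KRT72 by -0.06.

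Among the 13 hair keratins, 4 passed the filter, each on both arrays, and none of the 4 reached 1.5-fold. KRT85, a type II keratin of the hair matrix and cuticle, was at 5.29 with sildenafil and 5.20 without. KRT37 was at 5.03 and 5.11, KRT31, a cortex keratin, at 4.78 and 5.07, and KRT36 at 4.32 and 4.15. Directions were mixed, 2 higher and 2 lower, with a median of 0.01 that turned to -0.01 with the arrays centred on their medians. Below the filter, KRT40 was 1.54-fold higher with sildenafil (3.50, against 2.88 without). KRT33B differed by 0.56, KRT83 by 0.48 and KRT39 by -0.35. Of the type I genes 8 of 26 passed the filter, and of the type II genes 6 of 21. Over all 47 keratin genes, filtered or not, 27 were higher and 20 lower with sildenafil, with a median of 0.04. Of all named genes 50.7% were higher.

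**Figure D2:**
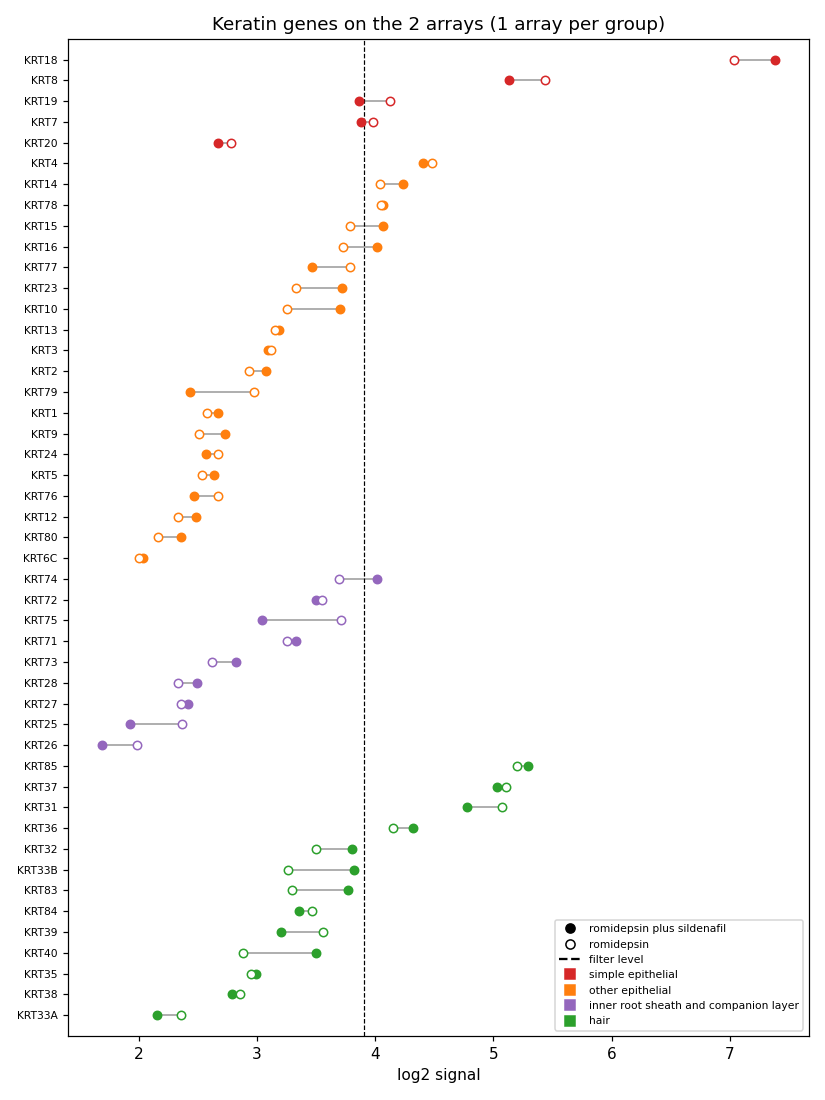
Log2 signals of the 47 keratin genes (rows, grouped by class and sorted by mean) on the array of romidepsin plus sildenafil (filled) and the array of romidepsin (open), 1 array each; the dashed line is the filter level of 3.91. KRT18, read from the brighter of its 2 probe sets, stands apart at 7.38 and 7.04, and most other keratins lie left of the dashed line. The other KRT18 probe set, not drawn, was at 3.55 and 3.34, also left of that line.

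The keratin-associated genes ranged more widely, and each of their chromosomal clusters held differences of both signs. Their log2 signals ran from 1.46 to 7.68 with sildenafil and from 1.16 to 7.60 without, and 29 of 84 passed the filter. Of these 29, 15 were higher and 14 lower with sildenafil, with a median of 0.03 that turned to -0.01 with lowess centring. In RefSeq the 84 genes form 5 groups: 2 on chromosome 11 (6 and 5 genes of the KRTAP5 family), 1 of 29 genes on chromosome 17 between type I keratin genes, and 2 on chromosome 21 (29 and 15 genes).

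In the KRTAP5 family, which encodes cysteine-rich proteins of the hair cuticle, KRTAP5-3 stood alone. Its log2 signal was 4.93 with sildenafil and 3.51 without, a difference of 1.42 (2.68-fold), the 3rd highest of 10081 named genes past the filter, which it passed on the sildenafil array alone. Its neighbours KRTAP5-2 (3.94 with sildenafil and 3.98 without) and KRTAP5-4 (2.20 and 2.50) differed by -0.03 and -0.30. The brightest members of the family were close to equal: KRTAP5-7 at 7.68 with sildenafil and 7.60 without, and KRTAP5-1 at 7.10 and 6.97. KRTAP5-6 differed by -0.39, and the other 5 members lay between -0.36 and 0.09. Altogether 4 of the 11 members were higher and 7 lower, beside 50.7% of all named genes higher. KRTAP5-3 was below the filter level without sildenafil, so its difference is that of a probe set at the dim end on 1 array. The family's genes are close relatives, and how far their probe sets read each other's transcripts was not tested.

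KRTAP10-1 led the group of KRTAP10 and KRTAP12 genes on chromosome 21, all 15 of which lie within the span of the TSPEAR gene in RefSeq. KRTAP10-1 was at 4.75 with sildenafil and 3.45 without, a difference of 1.30 (2.47-fold), the 6th highest among named genes past the filter. It passed on the sildenafil array alone, so its place in that order was helped by the difference itself. KRTAP10-5 (4.21 and 3.65) was just under the threshold at 1.48-fold. KRTAP10-9 was at 6.15 with sildenafil and 5.71 without, and KRTAP10-6 at 6.33 and 5.95, differences of 0.45 and 0.38. The differences of named genes of similar signal had SDs of 0.22 and 0.17, a spread across genes and not the error of either gene. KRTAP10-12 by contrast was lower with sildenafil (5.95, against 6.35 without), as was KRTAP10-2 (4.07, against 4.40). Over the 11 KRTAP10 genes 9 were higher and 2 lower, beside 50.7% of all named genes higher. The 4 KRTAP12 genes lay between -0.07 and 0.24. TSPEAR itself was at 4.63 with sildenafil and 4.49 without, a difference of 0.14. Whether the host transcript contributes to the signals of the genes within it was not tested.

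The other group on chromosome 21 held members beyond 1.5-fold in both directions. KRTAP20-1, of a family rich in glycine and tyrosine, was at 4.90 with sildenafil and 4.30 without, 1.52-fold higher and just past the threshold. KRTAP23-1 was at 3.87 with sildenafil and 4.62 without, 1.67-fold lower. It passed the filter on the romidepsin array alone and is not called where both arrays have to pass. Its neighbour KRTAP27-1 was at 5.10 and 4.91. The related KRTAP20-2 and KRTAP20-3 differed by -0.09 and 0.37, both below the filter. Of the KRTAP19 genes 5 of 6 were lower with sildenafil, beside 7262 of 14884 named genes, and only KRTAP19-5 passed the filter. KRTAP19-5 was at 4.47 with sildenafil and 4.83 without, and KRTAP19-2 was 1.57-fold lower but under 2.4 on both arrays. All 4 KRTAP13 genes were higher, by 0.07 (KRTAP13-4) to 0.71 (KRTAP13-3), beside 50.7% of all named genes. Only 1 of them, KRTAP13-1, passed the filter. KRTAP6-2 was at 4.71 with sildenafil and 5.09 without. KRTAP21-1 had a pair of probe sets that differed in sign, -0.19 for the brighter and 0.22 for the dimmer, both below the filter.

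On chromosome 17, 6 of 29 keratin-associated genes passed the filter and none of the 6 reached 1.5-fold. KRTAP9-2 was at 5.75 with sildenafil and 5.68 without, KRTAP9-4 at 4.74 and 4.80, and KRTAP9-8 at 4.41 and 4.66. All 11 KRTAP4 genes were below the filter on both arrays. Among them was the largest difference of any member, KRTAP4-8 at 3.13 with sildenafil and 1.68 without (1.45). KRTAP4-11, its closest relative in the family by upstream sequence, differed by 0.04 (3.09 with sildenafil and 3.05 without). The pair is shown because KRTAP4-8 had the largest difference and KRTAP4-11 the upstream sequence closest to it. The 250 bases before the starts were 92.5% identical in a global alignment. Whether upstream sequence bears on the differences was not tested, nor how far probe sets of KRTAP4 genes read each other's transcripts. KRTAP4-8 (chr17:41098143-41098392, minus strand) and KRTAP4-11 (chr17:41118374-41118623, minus strand) each have TATAAA, in capitals, beginning 30 bases before the start.
KRTAP4-8: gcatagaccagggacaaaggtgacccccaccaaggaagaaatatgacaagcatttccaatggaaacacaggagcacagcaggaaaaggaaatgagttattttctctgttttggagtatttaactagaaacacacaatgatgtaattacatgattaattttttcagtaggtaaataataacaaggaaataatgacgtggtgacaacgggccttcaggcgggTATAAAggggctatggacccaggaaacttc
KRTAP4-11: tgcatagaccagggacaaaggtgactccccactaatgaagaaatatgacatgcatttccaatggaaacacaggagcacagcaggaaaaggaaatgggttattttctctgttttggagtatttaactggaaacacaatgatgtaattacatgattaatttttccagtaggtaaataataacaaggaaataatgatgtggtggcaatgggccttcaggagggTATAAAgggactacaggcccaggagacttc
KRTAP4-7, whose window was 90.1% identical to that of KRTAP4-8, differed by 0.14. KRTAP1-5, at 3.85 with sildenafil and 3.22 without, was 1.55-fold higher, also below the filter. KRTAP4-5 differed by 0.41 and KRTAP4-3 by -0.38.

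**Figure D3:**
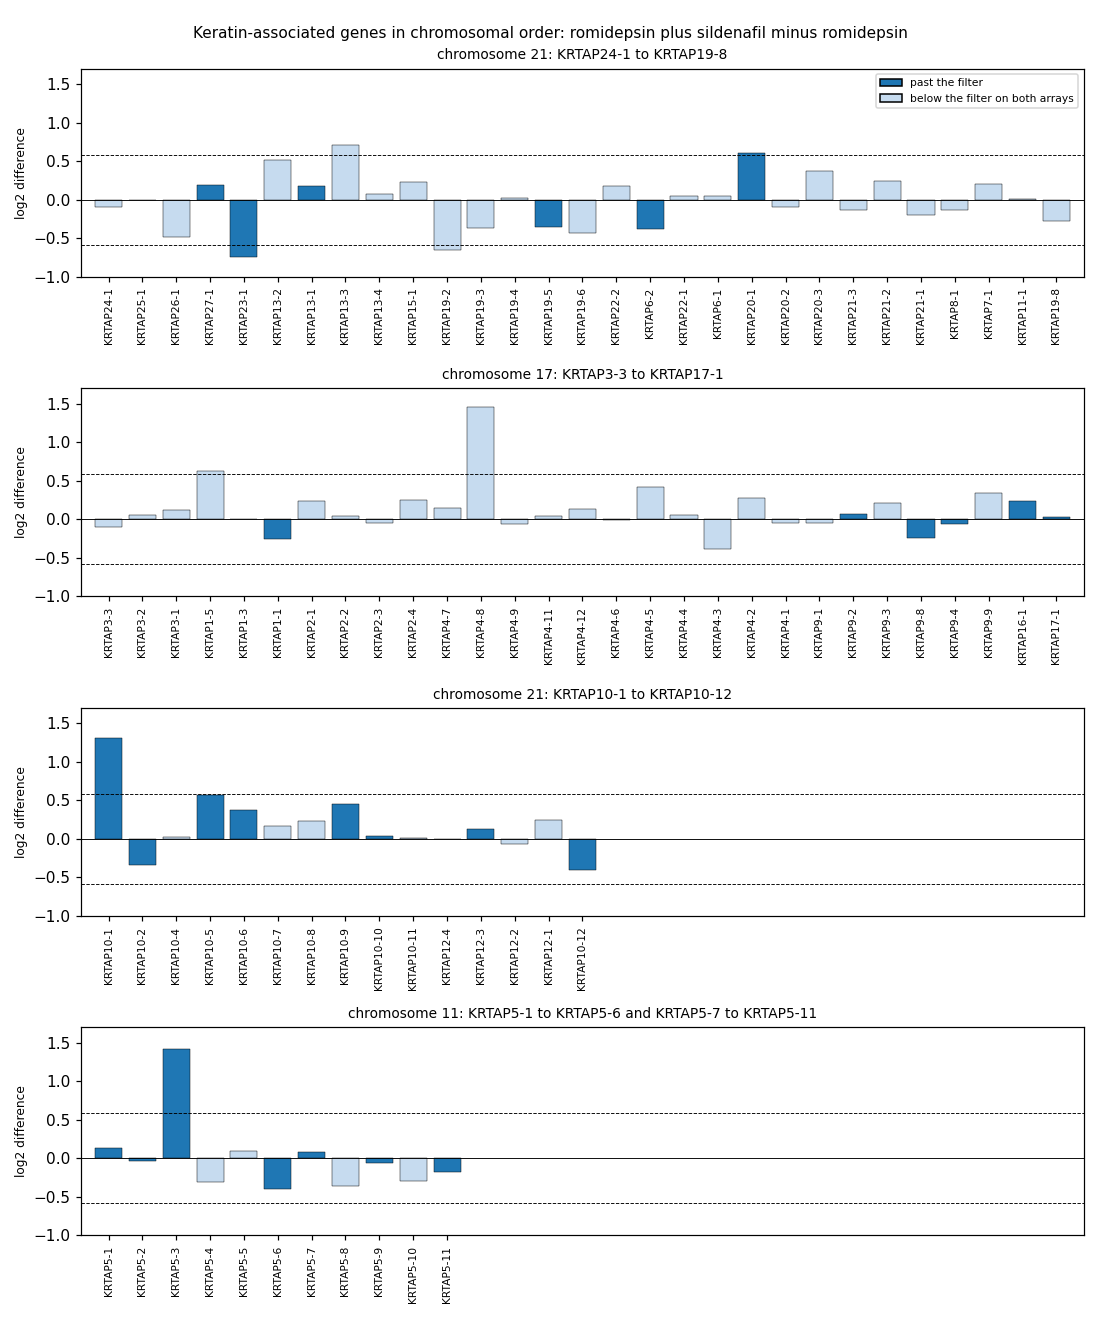
Log2 difference, romidepsin plus sildenafil minus romidepsin, of each of the 84 keratin-associated genes in chromosomal order, by cluster; dark bars are genes past the filter, pale bars genes below it on both arrays, and dashed lines mark 1.5-fold. Tall bars stand beside short or opposite ones, as KRTAP5-3 (1.42) beside KRTAP5-2 (-0.03) and KRTAP5-4 (-0.30).

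Every member at least 1.5-fold apart had a mean signal below the median of named genes. Other named genes were 1.5-fold apart more often below that median than above it. With no filter 10 of the 131 genes were at least 1.5-fold apart (7.63%), beside 2.55% of all named genes. Among the 88 members below the filter on both arrays 6 were that far apart (6.82%), beside 3.71% of named genes. All 10 lay below the median mean signal of named genes, where 116 members lay. There 8.62% of members and 4.05% of the 7326 other genes were 1.5-fold apart, and the SD of the differences was 0.36 among members and 0.27 among the others. Above that median, 0 of 15 members and 0.969% of the other genes were that far apart. Past the filter, the members just inside the threshold were KRTAP20-1 (1.52-fold) and KRTAP23-1 (1.67-fold), and just outside it KRTAP10-5 (1.48-fold) and KRTAP10-9 (1.36-fold).

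Most epithelial adhesion, cornified envelope and keratin regulator genes were dim too, while vimentin and the lamins were bright. Of 24 listed epithelial adhesion and desmosome genes 21 were measured and 7 passed the filter, with 0 beyond 1.5-fold and a median difference of 0.13. PLEC, the cytolinker plectin, was at 6.02 with sildenafil and 6.12 without, EVPL (envoplakin) at 5.48 and 5.20, and DSP, desmoplakin, at 3.88 and 4.17. Of the cornified envelope and hair follicle genes 22 were measured and 8 passed the filter, with 0 beyond 1.5-fold and a median of -0.02. LCE3D, a late cornified envelope gene, was the brightest at 7.87 with sildenafil and 8.25 without. SBSN (suprabasin) differed by 0.44, SPRR2A, a small proline-rich envelope protein gene, by -0.43 and S100A3, a calcium-binding protein gene of the hair cuticle, by -0.46. Of 20 measured regulators of keratin genes 9 passed, 4 higher and 5 lower, with a median of -0.01. The brightest was JUNB at 9.42 with sildenafil and 9.47 without, followed by JUN at 6.28 and 6.54 and KLF4 at 5.20 and 5.21. KLF5 differed by 0.35 (3.92 with sildenafil and 3.57 without), and HOXC13, a regulator of hair keratin genes, was below the filter at 3.27 and 2.93. Of the chaperone, kinase and turnover genes listed for keratins 7 were measured, all past the filter, with a median of 0.00 and the largest difference at TRADD, a keratin-binding adaptor of the tumour necrosis factor receptor (7.01 with sildenafil and 6.70 without).

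Of 15 listed genes of the other intermediate filament classes 8 were measured, and all 8 passed the filter. VIM (vimentin) was at 9.46 with sildenafil and 9.44 without, LMNB1 (lamin B1) at 9.44 and 9.50, and LMNA (lamin A/C) at 7.24 and 7.21. The dimmest were GFAP at 4.42 with sildenafil and 4.31 without, NES at 4.65 and 4.78, and PRPH at 4.83 and 4.80. DES, which encodes the muscle filament protein desmin, was 1.65-fold higher with sildenafil (5.61, against 4.89 without), and the other 7 lay between -0.13 and 0.10. Of 14 measured natural killer and T cell markers 13 passed the filter, which 67.7% of all named genes passed. The brightest were PRF1 (perforin), at 8.81 with sildenafil and 8.83 without, NKG7 at 8.23 and 8.50, and CD2 at 8.10 on both, while TYROBP was at 4.33 and 4.23, GNLY (granulysin) passed on the sildenafil array alone (3.92 and 3.82) and EOMES was below the filter (2.90 and 3.21). Of 8 measured epithelial markers other than keratins 3 passed, CLDN7, ESRP2 and DSP, and EPCAM was at 3.18 with sildenafil and 2.85 without. Of 9 measured hair follicle and epidermis markers 2 passed, and of 2 measured fibroblast markers 0. Their part in the keratin signals was not tested.

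**Figure D4:**
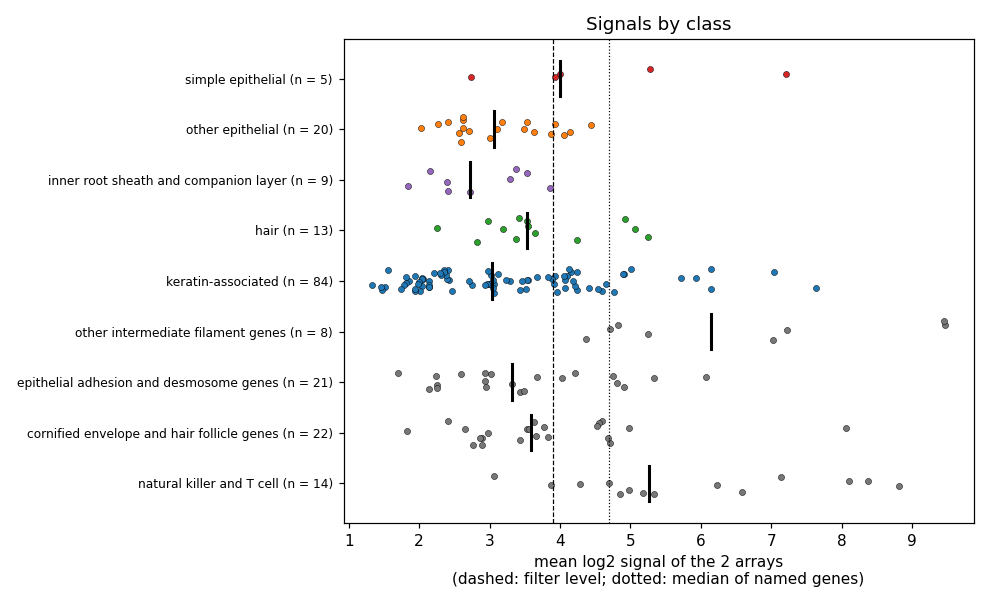
Mean log2 signal of both arrays (x axis) for each gene of the 5 member classes (coloured) and 4 comparison lists (grey), with bars at the class medians; points are spread vertically only to separate them. Most members lie left of the dotted median of named genes, while vimentin, the lamins and several natural killer cell markers lie to its right.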

How the data were processed

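The deposited table holds log2 signals of 53617 probe sets on 2 arrays. Per the labels' protocols, total RNA was amplified and biotin-labelled with whole-transcript kits. How the authors summarised, background-corrected and normalized them is not given in the sources used here. Values were read as base 2 from their range (up to 13.05). The columns had medians of 3.92 (romidepsin plus sildenafil) and 3.89 (romidepsin) and differed nowhere by more than 0.15 when sorted, so differences are relative to other transcripts. Samples were grouped by title, and the second drug of the combination title was read as sildenafil from the treatment protocol.

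Gene names came from the platform annotation. It gave 1 symbol for 16098 probe sets, and the other 37519, with no symbol or more than 1, were not used for genes. All 131 members matched RefSeq by Entrez identifier. Keratin classes follow gene numbers. No test was possible with 1 array per group, and genes were called at 1.5-fold. The members and lists were chosen with earlier results of these data known. Named genes are the members beyond 1.5-fold, all simple epithelial keratins, the 3 brightest and the 4 with the largest difference in each class or cluster, genes whose probe sets differ in sign, and up to 4 genes of each comparison list; neighbours, relatives and partners of these, host and marker genes and the brightest genes of the lists were added after their values were seen. Classes by protein composition were not made. Promoter windows are the first RefSeq entry per symbol, aligned globally (match 2, mismatch -1, gap opening -4, extension -0.5). The script that makes the calls was run on simulated data with known differences, which gives no error rate for these arrays. Alternatives changed the filter, the normalization (median, quantile, lowess with span 0.3), the probe set rule and the threshold. Python 3.11.15, numpy 2.4.6, pandas 2.3.3, statsmodels 0.14.6 and biopython 1.88 were used.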

Additional observations from a re-analysis of the deposited data

How the results depend on the processing

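The members called depended mostly on the signal filter and the threshold. Without a filter 131 genes entered, and 7 members were higher and 3 lower by the 1.5-fold rule, while requiring both arrays past the filter left 31 members, of which 1 was higher (KRTAP20-1) and 0 lower, beside 0.487% and 0.635% of 9443 named genes. At 2-fold 2 members were higher and 0 lower, beside 0.0893% of named genes in each direction. At the looser threshold tried 8 were higher and 6 lower, beside 6.69% and 6.04% of named genes. With the filter on the mean of both arrays, quantile normalization, the mean of probe sets or only genes with 1 probe set, the 4 calls were the same genes. KRTAP20-1 fell under 1.5-fold with median centring (0.58) and lowess centring (0.57), as did KRT40 (0.57) and KRTAP1-5 (0.58), both below the filter, with lowess centring. No member called at 1.5-fold changed sign under the normalizations and probe set rules run. Every median difference changed sign under some alternative, and no replicate spread exists to judge the changes by. That of all members past the filter ranged from -0.0149 (lowess centring) to 0.04, that of keratin genes from -0.0285 (filter on the mean of both arrays) to 0.05, and that of simple epithelial keratins from -0.26 to 0.0187 (both arrays past the filter, which left 2 genes). That of hair keratins ranged from -0.0148 (median centring) to 0.04 and that of keratin-associated genes from -0.0149 (lowess centring) to 0.04. No paired analysis was possible because each group holds 1 array. The table gives no background level per probe set, which limits what can be said of the 88 members below the filter on both arrays.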
